A study of Mus musculus with 4 samples.

Results

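Delta cells are the endocrine cells that make somatostatin, the peptide encoded by Sst, and 144 cells carrying the deposited subtype name Delta (Sst+) are described here. They were taken by that name alone from the authors' table of tuft and enteroendocrine cells, which holds 2586 cells, 1269 of them in 5 enteroendocrine subtypes (Delta, Epsilon, Ppy+, ECL and EEC-Progenitor). The whole data set holds 21140 cells, of which 13362 carry a deposited cell type. All 4 mice had the genotype Ptf1aCre-ERTM;ROSAYFP/+, in which tamoxifen switches on a yellow fluorescent protein (EYFP) in cells that use the acinar Ptf1a promoter, backcrossed into CD-1. They received tamoxifen by gavage, 5 mg a day on 5 days a week for 2 weeks. Caerulein, a peptide that overstimulates acinar cells and injures the pancreas, was then injected 2 times a day on 5 days a week for 2 weeks (2 mice) or 4 weeks (2 mice), starting at 10 weeks of age, and the labels add 2 days of recovery. EYFP+ cells were sorted from each pancreas and sequenced with the 10x 3′ method. Uninjured or unlabelled mice were not analysed here, so each comparison is between the times or between cell types within these injured mice.

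Somatostatin acts locally to restrain the release of other hormones, and delta cells are found both in pancreatic islets and, as D cells, in the stomach and gut. The prohormone is cut to the active peptides by prohormone convertases and stored with granins in dense-core granules. Hhex is the transcription factor best known for maintaining islet delta cells, while Isl1, Pax6, Neurod1 and Pdx1 act more widely in endocrine cells. Neurog3 marks the transient endocrine progenitor that precedes hormone-producing cells.

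Sst is on the minus strand at chr16:23889573-23890958 and Hhex on the plus strand at chr19:37434810-37440731 (GENCODE vM21, build mm10). The Sst promoter is shown because Sst is the gene that names these cells and because it holds a pair of sites long described in islet cells, a cAMP response element (TGACGTCA) and a TAAT core of the kind homeodomain factors such as Pdx1 bind. Both were found by searching the 250 bases before the RefSeq start on both strands, and each is printed 5′ to 3′ in a 30-base window of GRCm38.p6, minus strand, with the motif in capitals. The element starts 48 bases before the start and its window is chr16:23890874-23890903. The core starts 95 bases before the start and its window is chr16:23890923-23890952. Both windows lie inside the longer first exon that GENCODE gives Sst.
Sst cAMP response element: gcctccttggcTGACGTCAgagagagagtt
Sst TAAT core: gattttgcgaggcTAATggtgcgtaaaagc
TGACGTCA occurs in 1.55% of the 32817 RefSeq upstream windows of this length and TAAT in 54.9%. Neither was found in the upstream windows of Hhex, Pyy or Ghrl. Of the 8 genes described below as highest in Delta cells, 6 had a window, of which 3 (Sst, Pcdh15 and Arhgap29) held TAAT and 1 (Sst) TGACGTCA.

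The 2-week mice gave 38 and 45 Delta cells and the 4-week mice 32 and 29. Summed over cells, the depth at 2 weeks was 536226 and 582480 unique molecular identifiers (UMIs, counted RNA molecules), and at 4 weeks 315449 and 347726, so the 4-week sums are the less precise. The median cell held between 9835.5 and 13317.5 UMIs in each mouse. Each Delta cell held at least 1 EYFP UMI, with a median of 3 and at most 15, but so did all 13362 cells with a deposited type. No barcode was shared with another library. In the authors' table of YFP+ cells, which gives the 13362 deposited types, 142 of the 144 were typed as enteroendocrine. The other 2, both from 4-week mouse 1, were typed as Tuft. Xist was at 0 in the Delta cells of 4-week mouse 2 and between 1509 and 1988 counts per 1000000 UMIs (CPM) in the other 3 mice, while the Y-linked Eif2s3y was at 101 CPM in 4-week mouse 2 and 0 in the others. The labels used here give no sex. The other 4-week mouse matched both 2-week mice in these genes, and the time comparison is also given without 4-week mouse 2.

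The label matched the level of Sst, which is the marker the name cites, so its values are a description. Sst was at 107531 and 70377 CPM at 2 weeks and 68537 and 86571 CPM at 4 weeks, a mean of 83254 ± 18100 CPM (SD, n = 4). The ranges of the 2 times overlap, and every mouse lies far above the highest other enteroendocrine subtype, Ppy+ cells, at a mean of 197 CPM. In the median cell Sst made up 11.9%, 7.53%, 5.47% and 8.80% of all UMIs in the 4 mice. In 15 cells Sst was under 1% of UMIs (3, 3, 7 and 2 cells per mouse), and 2 cells held no Sst UMI. Hhex and Isl1 were detected in all 15, at a pooled 1404 and 1646 CPM. Pooled over the 15, Pyy was at 36926 CPM and Sst at 3893 CPM, and Pyy exceeded Sst in each mouse. Ghrl was at 33023 pooled CPM, but 1 cell held 5493 of its UMIs, and the median cell held 30 Ghrl and 31 Sst UMIs. Of the 15 cells 7 came from 4-week mouse 1.

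Among the genes listed for delta cells, Hhex, Isl1 and Rbp4 were the most abundant after Sst. Hhex was at 1587 and 1336 CPM at 2 weeks and 1645 and 1659 CPM at 4 weeks. The next highest subtype, Epsilon, had a mean of only 126 CPM. Isl1, a LIM-homeodomain factor of endocrine cells, was at 1550, 1578, 1645 and 1493 CPM. It was shared with Epsilon cells (mean 1233 CPM), lower in Ppy+ cells (714 CPM) and nearly absent from ECL cells (37.7 CPM). Rbp4, which encodes retinol binding protein, was at 8552, 5202, 9152 and 8748 CPM; ECL cells reached a similar mean of 7539 CPM, and Ppy+ cells exceeded it in every mouse (mean 17675 CPM). Pdx1, the homeodomain factor of pancreatic and duodenal cells, was at 204 ± 25.1 CPM (SD, n = 4) and was higher than in the other 4 subtypes of the same mouse in every mouse.

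Several receptor and surface genes used to recognise islet delta cells were sparse, and others were not. The ghrelin receptor gene Ghsr had no UMI among the 1781881 UMIs of all Delta cells, which allows up to 1.68 CPM for counting error only, and it was at 0 in the other enteroendocrine and tuft subtypes too. The urocortin receptor gene Crhr2 was at 5.2 CPM, the leptin receptor gene Lepr at 0.9 CPM and the phosphatase gene Ptprz1 at 4.8 CPM on average. Casr, the calcium-sensing receptor, was at 38.2 ± 13.0 CPM (SD, n = 4), and Ffar4, the long-chain fatty acid receptor, at 194 ± 30.5 CPM. Ffar4 was about as high in Ppy+ cells (212 CPM).

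**Figure D1:**
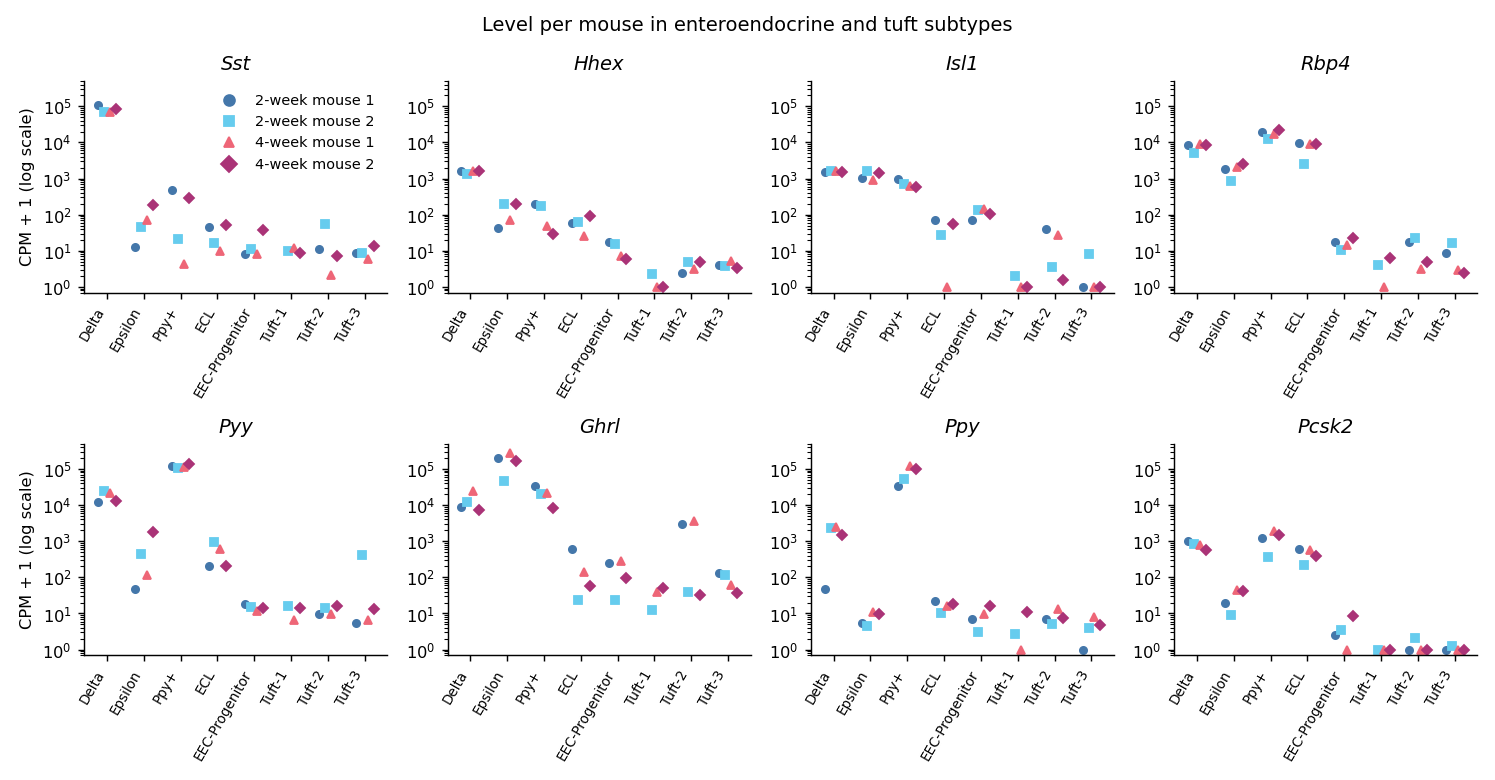
Level of 8 genes in each enteroendocrine and tuft subtype, as CPM plus 1 on a log axis, with 1 point per mouse; Tuft-1 cells of 2-week mouse 1, of which there were 6, are not drawn. Sst and Hhex are highest in Delta cells, whereas Isl1 is shared with Epsilon cells and Rbp4 and Pcsk2 with Ppy+ and ECL cells.

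Other endocrine transcription factors differed in level. Nkx6-1, Mafa and Mnx1, all linked to beta cells, had at most 1 UMI in the sum of all Delta cells. Pax6 (407 CPM), Insm1 (400 CPM), Neurod1 (248 CPM) and Foxa2 (169 CPM) were all present. Neurod1 was the gene most clearly below every other subtype, but the difference was small, and 113 of 144 Delta cells held a UMI of it. Its mean was the lowest of the 5 subtypes, the next being Ppy+ cells at 327 CPM. It was lower than in each other subtype in all 4 mice, with a log2 difference of -0.28 in the mouse nearest to 0. No gene was at least 1 log2 unit (a factor of 2) below every other subtype in every mouse, of 1018 genes at 100 CPM or more in all the others (0.0%).

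Neurog3 was at 352 and 97.9 CPM at 2 weeks and 6.3 and 5.8 CPM at 4 weeks. The groups do not overlap, but these levels rest on few cells. Of the 144 cells, 6 held a Neurog3 UMI, and 3 cells of the 2-week mice held 105, 84 and 56 of the 250 UMIs. Those 3 cells were deep, at 24055, 25088 and 25796 UMIs. In EEC-Progenitor cells the mean was 2411 CPM. The difference between the times was a log2 change of -5.15 ± 1.68 (SE) with an adjusted p of 0.822 in edgeR's quasi-likelihood test, which did not pass the threshold of 0.05. DESeq2, run on the same sums, gave an adjusted p of 2.1e-05. In edgeR, Neurog3 was called without cells that had a second hormone and without cells under 1% Sst. It was not called with no filter on low counts or without the robust option. The call therefore depends on the tool and on the cells used. Among the 12 alternatives that could be fitted the log2 change ranged from -5.84 to -3.91. A fit without a 2-week mouse drops the spread between the 2-week mice, so its p-value cannot measure that spread.

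Delta cells also held RNA of other hormones. Pyy, which encodes peptide YY, was at 12125 and 24682 CPM at 2 weeks and 21160 and 13335 CPM at 4 weeks. In 4-week mouse 1 a pair of cells held 3936 of 6675 Pyy UMIs, and without them that mouse was at 9520 CPM. The first of the pair (2085 Pyy UMIs) had Sst under 1%, and the second (1851) had Sst over 1%. Over the Delta cells of that mouse with at least 1% Sst, the second among them, the level was 13526 CPM. The Pyy level of Delta cells is well below Ppy+ cells (mean 117805 CPM) and above the other 3 subtypes, whose means were at most 610 CPM. Ghrl, which encodes ghrelin, was at 8998, 12294, 24039 and 7164 CPM, with the highest and the lowest value both in 4-week mice. A single cell, with Sst under 1%, held 5493 of the 7583 Ghrl UMIs of 4-week mouse 1, and without it that mouse was at 7062 CPM. Over the Delta cells with at least 1% Sst, Ghrl was at 9210, 13119, 5358 and 7946 CPM. In 4-week mouse 2 a single cell, with Sst over 1%, held 1081 of 2491 Ghrl UMIs, and without it that mouse was at 4204 CPM. With the top cell left out of both, 4-week mouse 1 stayed above 4-week mouse 2, while over cells with at least 1% Sst it was below. The order of the 4-week mice therefore depends on which cells are counted. Epsilon cells had a mean of 173763 CPM. Mboat4, the enzyme that acylates ghrelin, was at 183, 244, 254 and 141 CPM in Delta cells, close to the 258 CPM of Epsilon cells. Ppy, which encodes pancreatic polypeptide, was at 46.6, 2261, 2504 and 1501 CPM. In the 3 mice with more than a trace these levels rest on 4 cells. In 4-week mouse 1 a single cell held 766 of 790 Ppy UMIs and in 4-week mouse 2 another held 517 of 522, while in 2-week mouse 2 a pair of cells held 1271 of 1317. Iapp, the islet amyloid polypeptide gene, was at 703, 366, 333 and 342 CPM. In 4-week mouse 1 a pair of cells under 1% Sst held 64 of 105 Iapp UMIs, and without them that mouse was at 137 CPM. Glucagon and insulin RNA was close to nil: Gcg had 1 UMI, Ins1 had 4 and Ins2 had 9 in the sum of all Delta cells.

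Cell by cell, Pyy and Ghrl were concentrated in some Delta cells. A hormone was counted as a second hormone of a cell where it made up at least 1% of the cell's UMIs. Pyy met this in 55 of 144 cells (10, 24, 10 and 11 per mouse) and Ghrl in 29 (7, 9, 7 and 6). Ppy met it in 4 cells and Gip, the incretin gene, in 3, and no cell reached it for Gcg, Ins1, Ins2, Cck or Iapp. With Sst counted the same way and classes cut on Sst, Pyy, Ghrl and Ppy, 69 cells had Sst alone (1 of them also reached 1% for Gip), 36 Sst and Pyy, 16 Sst and Ghrl, and 8 all of Sst, Pyy and Ghrl. Each of these 4 classes was found in every mouse, although the last held only 2, 3, 1 and 2 cells per mouse. In 2-week mouse 2 the class with Sst and Pyy was larger (19 cells) than the class with Sst alone (14 cells), unlike in the other mice. The name Sst alone holds only for the cut at 1%. Of its 69 cells, 62 held a Pyy UMI (a pooled 3282 CPM) and 52 a Ghrl UMI (1354 CPM).

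As a background for free RNA, Tuft-3 cells, which are no endocrine cells and were deeper (median 17174 UMIs against 11516.5), reached 1% for Pyy in 2 of 494 cells and for Ghrl in none. Any Pyy UMI was found in 91.7% of Delta cells and 79 of 494 Tuft-3 cells. For Ghrl the shares were 83.3% and 37.0%. With each cell thinned to 2500 UMIs, Pyy was found in 87.0% of Delta and 3.24% of Tuft-3 cells, and Ghrl in 66.2% and 9.57%. Tuft-3 cells held less acinar enzyme RNA than Delta cells (a mean of 6559 against 17161 CPM). ECL cells, with 25191 CPM of it and a median of 10646 UMIs, held a Pyy UMI in 36.9% and a Ghrl UMI in 40.1% of cells, and after thinning in 22.8% and 15.5%. They reached 1% for Pyy in 3 of 217 cells and for Ghrl in none. The cells with Sst and Pyy had a median of 11516.5 UMIs and those with Sst and Ghrl 11207, against 11051 for those with Sst alone. The 8 cells with Sst, Pyy and Ghrl were deeper, at a median of 13448.5 UMIs. They held the acinar enzyme gene Prss2 at a pooled 2720 CPM, against 640 CPM in cells with Sst alone. No doublet caller was run, and the part of doublets in these classes was not tested.

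**Figure D2:**
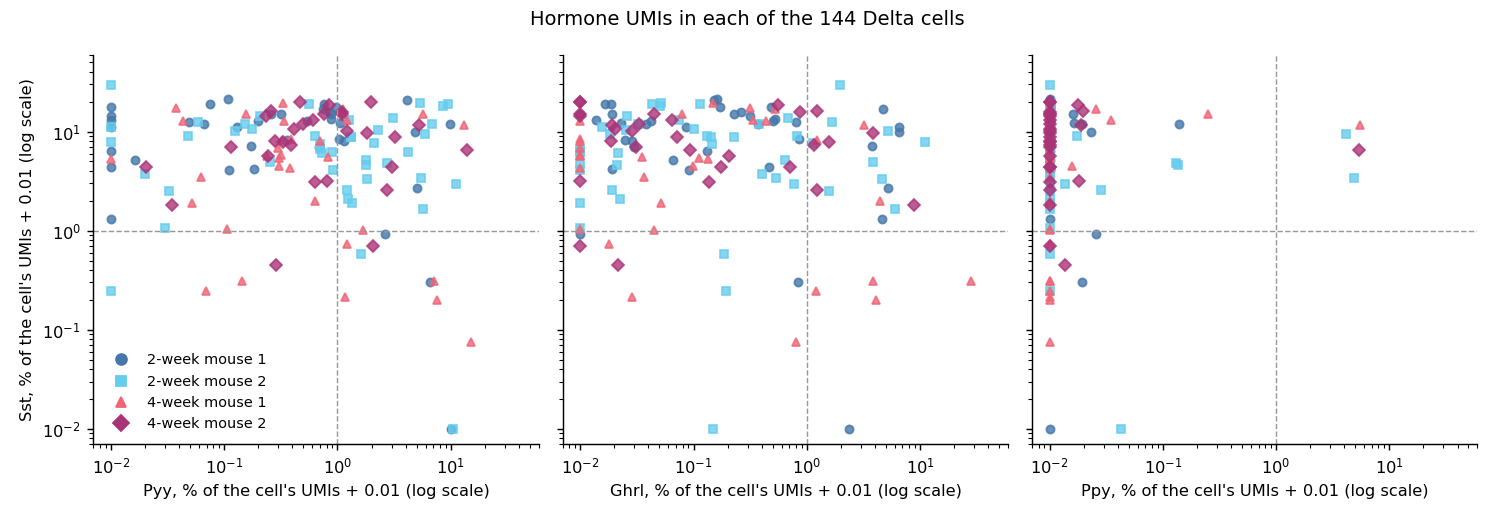
Share of each Delta cell's UMIs from Sst (vertical axis) against Pyy, Ghrl and Ppy (horizontal axes), each plus 0.01 on a log axis, with dashed lines at 1% and 1 point per cell marked by mouse. Of the 144 cells, 55 lie to the right of the line for Pyy, 29 for Ghrl and 4 for Ppy, and 15 lie below the line for Sst.

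Each of these 4 classes was cut to hold Sst at 1% or more, so its presence in all of them was fixed by the cut. Hhex was at a pooled 1716 CPM in cells with Sst alone, 1424 CPM with Sst and Pyy, 1388 CPM with Sst and Ghrl, and 923 CPM with all of them. Sst was at 102167, 94553, 80957 and 60266 pooled CPM in the same order of classes. Pcsk2, the prohormone convertase 2 gene, was at 516 pooled CPM with Sst alone and 1365 CPM with Sst and Pyy. By mouse, Pcsk2 was at 609, 436, 585 and 328 CPM in the first class (24, 14, 18 and 13 cells). In the second (5, 19, 4 and 8 cells) it was at 1445, 1189, 2538 and 1458 CPM, so the class with Sst and Pyy was higher in every mouse. In the class with Sst, Pyy and Ghrl, of 2, 3, 1 and 2 cells, Pcsk2 was at 2378, 1799, 3631 and 221 CPM. The last value, from 4-week mouse 2, is below that mouse's cells with Sst alone. The 1 cell of 4-week mouse 1 in this class held 1 Hhex UMI (71.2 CPM). These classes were cut on measured hormones and were not tested.

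Among prohormone processing genes, Pcsk2 separated Delta cells from Epsilon cells and less from Ppy+ cells. Pcsk2 was at 987, 819, 802 and 561 CPM in Delta cells. Epsilon cells had a mean of 28.1 CPM and Ppy+ cells 1229 ± 629 CPM (SD, n = 4), and Delta cells were below Ppy+ cells in 3 of 4 mice. Pcsk1, the other convertase gene, was at 125 CPM in Delta cells and between 74.8 and 179 CPM in the other subtypes. The granin gene Chga was at 847 ± 74.4 CPM (SD, n = 4), and Chgb at 1057, 761, 1246 and 3747 CPM, with 4-week mouse 2 highest. Single cells held 239 of 567 Chgb UMIs in 2-week mouse 1 and 185 of 393 in 4-week mouse 1, and without them these mice were at 631 and 686 CPM. ECL cells held far more Chgb (mean 27562 CPM). Of the 18 listed genes of granins and processing, 13 reached 100 CPM in Delta cells and none was particular to them by the rule given next.

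Across 1577 genes at 100 CPM or more in Delta cells, 8 (0.507%) were at least 1 log2 unit above every other enteroendocrine subtype of the same mouse, on the log2(CPM + 10) scale, in 4 of 4 mice. The subtypes were defined by the authors on these counts, so this is a description without a test. Besides Sst and Hhex the genes were Pcdh15, Ramp1, Auts2, Arg1, Acot7 and Arhgap29. Pcdh15, a protocadherin gene, was at 127, 153, 53.9 and 115 CPM, and the next subtype, Epsilon, had a mean of 15.2 CPM. Ramp1 encodes a partner protein of the receptor for calcitonin gene-related peptide. It was at 272, 149, 209 and 161 CPM, against 45.3 CPM in Ppy+ cells, while the receptor gene Calcrl itself was at 35.4, 10.3, 3.2 and 2.9 CPM. Auts2, a chromatin-associated regulator gene, was at 420, 371, 358 and 391 CPM, with little spread. Arg1, the arginase of the urea cycle, was at 254, 309, 200 and 210 CPM, against 67.9 CPM in Epsilon cells. Acot7, an acyl-CoA thioesterase gene, was at 168 ± 32.3 CPM (SD, n = 4) and Arhgap29, a gene of a GTPase-activating protein, at 155 ± 15.2 CPM. Acot7 was also found in Tuft-2 and Tuft-3 cells, at 188 and 216 CPM, so it does not separate Delta cells from these. In Tuft-1 cells it was lower, at 19.7 CPM in 2-week mouse 2 and 55.3 and 10.2 CPM in the 4-week mice.

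**Figure D3:**
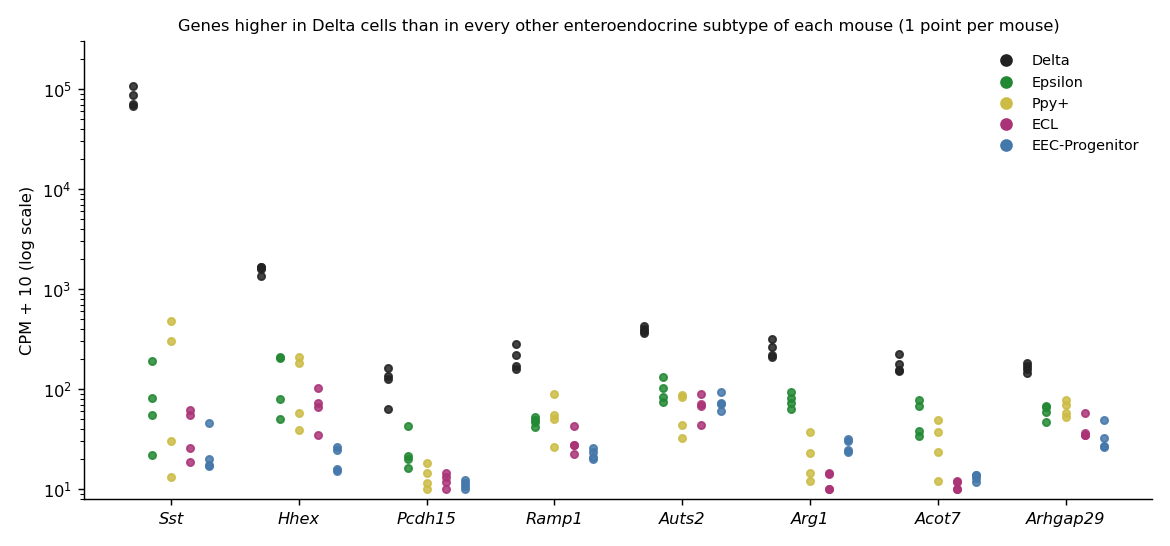
The 8 genes that were at least 1 log2 unit higher in Delta cells than in each other enteroendocrine subtype of the same mouse, as CPM plus 10 on a log axis, with 1 point per mouse and subtype. The Delta points (black) lie above those of the other 4 subtypes for each gene; for Pcdh15 the lowest Delta mouse is at 53.9 CPM.

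The genes whose level followed Sst most closely over 31 sums (1 per mouse and tuft or enteroendocrine subtype) were Pcdh15 (Pearson r = 0.911), Hhex (0.880), Ppp1r2 (0.851), Auts2 (0.850) and Ramp1 (0.830), of 1576 candidates. The sums share libraries and the 4 Delta sums alone are high for Sst, so these values describe the contrast of Delta cells with the rest. Ppp1r2, an inhibitor subunit of protein phosphatase 1, was at 241 ± 43.9 CPM in Delta cells (SD, n = 4).

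Against single subtypes, the same rule over genes at 100 CPM or more in either subtype of the pair gave larger lists. Against Epsilon cells 38 of 1718 genes (2.21%) were higher in Delta cells and 21 (1.22%) lower. The higher ones included Pcsk2, Iapp, Pyy and the imprinted RNA Meg3 (a mean log2 difference of 4.15 ± 0.33, SD over 4 mice). The lower ones included Ghrl, Nkx2-2 and the fatty acid enzyme gene Acsl1 (-4.45 ± 0.88). Against Ppy+ cells 35 of 1656 (2.11%) were higher, among them Nefm, which encodes a neurofilament (2.56 ± 0.80), and the progenitor and duct factor Sox9 (2.32 ± 0.62). There 22 (1.33%) were lower, among them Ppy, Pyy, Gip and Peg10. Against ECL cells 38 of 1869 (2.03%) were higher and 37 (1.98%) lower, the latter led by Tac1, the tachykinin gene that names that subtype (-5.44 ± 0.54). Against EEC-Progenitor cells 113 of 1935 (5.84%) were higher and 109 (5.63%) lower. Rbp4 (8.28 ± 0.24) and Pcsk2 (5.96 ± 0.65) were among the higher genes. Neurog3 and the Notch ligand gene Dll3 (-3.28 ± 0.10) were among the lower.

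Receptor genes were mostly at low levels. Of the 29 listed receptors for signals that reach delta cells, Ramp1, Ffar4 and Ffar2, a receptor for short-chain fatty acids, reached 100 CPM, and 7 had no UMI in any mouse. Of the 30 listed excitability and exocytosis genes, 12 reached 100 CPM. This list summed to a mean of 3948 CPM in Delta cells, against 3571 in Epsilon, 3839 in Ppy+ and 4791 CPM in ECL cells. Abcc8 and Kcnj11 encode the 2 subunits of the ATP-sensitive potassium channel. Abcc8 was at 287, 247, 352 and 282 CPM, close to Ppy+ cells (313 CPM) and above Epsilon cells (72.9 CPM). Kcnj11 was at 73.6 ± 14.8 CPM (SD, n = 4), against 53.1 CPM in Ppy+ cells and 28.6 CPM in Epsilon cells. The somatostatin receptor genes were near the limit of detection, with Sstr3 the highest at 12.0 CPM and Sstr4 at 0.

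RNA of neighbouring cell types was present at low levels. The 19 measured acinar enzymes summed to between 15099 and 18938 CPM in Delta cells, against a mean of 523461 CPM in Acinar cells and 6559 CPM in Tuft-3 cells. The 23 mucin and ductal genes summed to 4783 and 5459 CPM in the 2-week and 7298 and 5671 CPM in the 4-week mice, against a mean of 108117 CPM in MucinDuctal cells. The 20 tuft genes summed to 1081 CPM in 4-week mouse 1, which holds the 2 cells typed Tuft, and to between 57.8 and 118 CPM in the other 3 mice. The 10 macrophage genes summed to 738 CPM in 2-week mouse 1 and between 60.4 and 285 CPM in the others. The part of this RNA in the results was not tested, except where values are given below.

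Delta cells were 14.1% (95% exact binomial interval 10.2 to 18.9%) and 11.6% (8.59 to 15.2%) of enteroendocrine cells at 2 weeks. At 4 weeks they were 10.3% (7.17 to 14.3%) and 9.60% (6.53 to 13.5%). The lower share of the 2-week mice exceeds both 4-week shares, but the intervals, which cover counting error only, overlap. The difference of the means was -2.90 percentage points, with an exact two-sided permutation p of 0.333, the smallest that 2 mice against 2 allow. Of enteroendocrine cells without progenitors, Delta cells were 18.6% ± 2.34 at 2 weeks and 14.1% ± 0.150 at 4 weeks (SD, n = 2; exact permutation p = 0.333). Of all cells with a deposited type they were 1.27% and 1.25% and then 1.14% and 0.730% (exact permutation p = 0.333). Of the whole tuft and enteroendocrine table they were 10.9% and 4.01% and then 6.35% and 4.74%, which overlap. No difference between the times was detectable in this design.

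**Figure D4:**
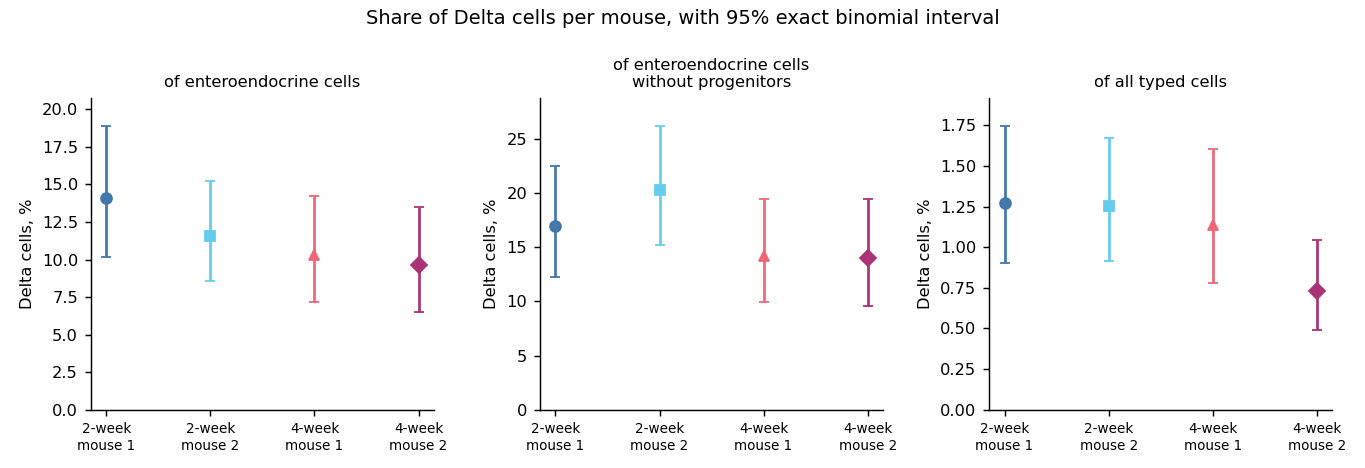
Delta cells as a percentage of enteroendocrine cells, of enteroendocrine cells without progenitors and of all typed cells, with 1 point per mouse and bars for the 95% exact binomial interval. The 4-week points lie below the 2-week points in each panel, and the bars overlap.

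To ask what changed within Delta cells between 2 and 4 weeks, UMIs were summed per mouse and tested with edgeR's quasi-likelihood test with Benjamini-Hochberg adjustment over 6494 genes. The test called 1 gene (0.0154%) at an adjusted p under 0.05, and 401 genes (6.17%) had an unadjusted p under 0.05. Pga5, which encodes a pepsinogen, the zymogen of a stomach protease (chr19:10668956-10678071, minus strand), was at 26.1 and 18.9 CPM at 2 weeks and 133 and 77.6 CPM at 4 weeks. Both 4-week mice lie above both 2-week mice, as they do for other genes: 35.1% of the genes tested had no overlap between the times, in one direction or the other. The log2 change was 2.23 ± 0.36 (SE), with an adjusted p of 0.0039. It rests on 14, 11, 42 and 27 UMIs, in 11, 9, 19 and 11 cells. Over 13 alternatives the log2 change of Pga5 stayed between 1.78 and 2.59, but the call was lost under DESeq2 (adjusted p of 0.245). In edgeR it was lost without the robust option (0.111) and without cells that had a second hormone (0.102). A fit in edgeR with the other enteroendocrine subtypes also lost it (0.840).

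Pga5 was far higher in MucinDuctal cells, where it was at 5508 and 687 CPM in the 2-week and 8630 and 5623 CPM in the 4-week mice. The other differentiated enteroendocrine subtypes showed the same order at similar levels. Epsilon cells had 36.4 and 35.8 and then 71.2 and 82.1 CPM, and Ppy+ cells 20.3 and 15.8 and then 67.0 and 74.2 CPM. A test of whether the change in Delta cells differed from the mean change of the other 4 subtypes, with mouse as a block, gave a log2 difference of 0.52 ± 0.80 (SE) and an adjusted p of 1.0. That free RNA of MucinDuctal cells enters the Delta value of Pga5 was not tested. Over all 9348 genes in that test edgeR called 0 (0.0%), with 443 (4.74%) at an unadjusted p under 0.05. DESeq2 also called 0 there, with 157 at an unadjusted p under 0.05.

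Tff2, a trefoil factor gene of mucous cells and, like Neurog3, named because DESeq2 called it, was at 198 and 390 CPM in the 2-week and 1534 and 1055 CPM in the 4-week mice, which do not overlap. The log2 difference was 2.16 ± 0.48 (SE), and edgeR's quasi-likelihood test gave an adjusted p of 0.752, while DESeq2 gave 4.4e-06. In edgeR, Tff2 was also called with no filter on low counts, without the robust option and without cells that had a second hormone. It was not called with another normalization, without cells of very high UMIs, without cells under 1% Sst or without cells typed Tuft. The fit with the other enteroendocrine subtypes did not call it either. Over 13 alternatives, the fit without 4-week mouse 2 among them, the log2 change of Tff2 stayed between 1.78 and 2.69. MucinDuctal cells held Tff2 at 37112 and 12794 and then 53122 and 36785 CPM. The count of called genes was sensitive to each mouse: without 2-week mouse 1 it was 50, without 2-week mouse 2 36, without 4-week mouse 1 29 and without 4-week mouse 2 33, in fits where the lone mouse of a time is assumed to vary like the pair of the other.

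The other genes named for the time comparison did not pass the threshold; they are the 8 per direction with the smallest p among genes at 50 CPM or more whose groups do not overlap. Higher at 4 weeks, besides Pga5, were Tspan8, a tetraspanin (114 and 120 against 187 and 247 CPM; adjusted p = 0.259 in edgeR), and Gng12, a G-protein subunit (89.5 and 139 against 193 and 244 CPM; 0.259). Cd9, Nefm, Sdc4, Cck and Gpx3 followed, each with an adjusted p of 0.566. Cck, the cholecystokinin gene, was at 28.0 and 41.2 against 53.9 and 152 CPM, and single cells held 17 of 17 Cck UMIs in 4-week mouse 1 and 48 of 53 in 4-week mouse 2. Lower at 4 weeks were Gm49980 (112 and 118 against 50.7 and 48.9 CPM; 0.271) and Rrbp1, a ribosome-binding protein of the endoplasmic reticulum (239 and 357 against 152 and 187 CPM; 0.447). Rnase1, the pancreatic ribonuclease (317 and 371 against 184 and 89.2 CPM), and Reg3b, an injury-induced lectin of the exocrine pancreas (61.5 and 112 against 34.9 and 34.5 CPM), had 0.566. In 2-week mouse 2 a pair of cells held 132 of 216 Rnase1 UMIs, and without them that mouse was at 149 CPM, below 4-week mouse 1. Acinar cells held both genes at far higher means, 6058 CPM for Rnase1 and 1969 CPM for Reg3b. Rps15, Alcam, Onecut2 and the mitochondrial mt-Co3 complete the list, also at 0.566.

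**Figure D5:**
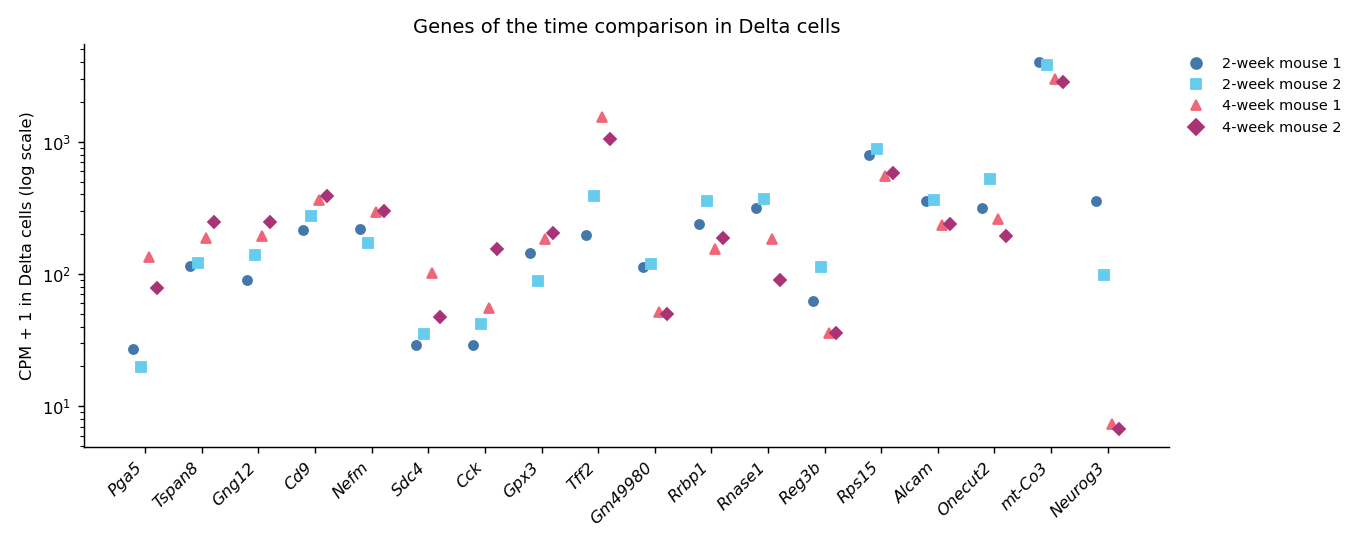
Level in Delta cells of each mouse, as CPM plus 1 on a log axis, for the 16 genes of smallest p whose groups do not overlap and for Tff2 and Neurog3. Pga5 is the 1 gene past the threshold in edgeR's quasi-likelihood test; the 4-week points lie above the 2-week points from Pga5 to Tff2 and below them from Gm49980 to Neurog3.

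By list, no member of a listed group passed the test in edgeR in either direction. Of the 10 delta cell genes tested, 7 were higher and 3 lower at 4 weeks, with a median log2 difference of 0.16 (0.00 over all genes tested). Sst itself had a log2 difference of -0.20 ± 0.35 (SE) and an adjusted p of 0.984, and Hhex 0.19 ± 0.14 and 0.895. Of 16 endocrine transcription factors 6 were higher and 10 lower (median -0.04), of 10 hormone and amine genes 4 higher and 6 lower (-0.08), and of 17 granin and processing genes 11 higher and 6 lower (0.13). The 25 excitability and exocytosis genes had a median of -0.12 and the 16 genes of protein folding and stress in the endoplasmic reticulum a median of -0.19, 13 of them lower. All 3 tested Reg genes were lower (median -1.30) without overlap between the times, against 35.1% without overlap over all genes tested. The 3 tested macrophage genes were also all lower (median -1.31), 1 of them without overlap. Of the granin and processing genes 9 of 17 did not overlap, and of the mucin and ductal genes 8 of 15, with a median of 0.02. Changes can be missed with 2 mice per time and at this depth. In data simulated for this comparison over 6494 genes, the test recovered 23 of 100 genes given a 2-fold change. Of 100 given a 4-fold change it recovered 83. Every simulated gene had the same spread between mice beyond counting error (a dispersion of 0.0242). Recovery for genes of wider spread, or with UMIs concentrated in single cells, was not simulated.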

How the data were processed

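Counts of UMIs per gene and cell and the cell type names were deposited by the authors; Cell Ranger 4.0.0, Seurat 3.2.3 and build mm10 are named in the submitters' processing notes. The deposited cells hold at least 1000 UMIs and at most 6.00% mitochondrial UMIs. Nothing else about cell or doublet filtering is given in the sources used here, and no doublet caller was run; Delta cells with over 2 times the median UMIs of their mouse (6 cells) were left out in an alternative. The members and the 19 gene lists (320 of 321 genes measured) were chosen with earlier results of these data known.

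UMIs of Delta cells were summed per mouse, the replicate, and given as CPM; p-values reflect the spread between these mice. Times were compared with edgeR 4.0.16 (TMM, filterByExpr, robust quasi-likelihood test, adjusted p under 0.05); DESeq2 1.42.0 was an alternative. The difference of time effects was fitted over 5 subtypes with mouse within time. The test was checked on simulated data with the same dispersion for all genes, where 2 unchanged genes were called. Genes named are list members, genes at least 1 log2 unit above every other subtype, the nearest lower ones, the 8 genes per direction of smallest p at 50 CPM or more with no overlap between times, and the 5 most like Sst. Meg3, Acsl1, Peg10 and Dll3 were named from the comparisons with single subtypes, and Xist and Eif2s3y as sex-linked genes. Alternatives were another normalization, no filter on low counts, no robust option, other cells left out, other thresholds and each mouse left out. Motifs were searched in RefSeq promoters (GRCm38.p6). Labels carry mouse names and no replicate numbers; mice were numbered in accession order. Some listed genes are not reported here.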

Additional observations from a re-analysis of the deposited data

Results flagged for a closer look

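Cells with at least 1% of their UMIs from Sst were also found outside the deposited subtypes. Among 7778 cells without a deposited type, 126 reached that share (9, 11, 47 and 59 per mouse), against 0 of 3983 MucinDuctal cells, 10 of 3698 Acinar cells and 2 of 2442 cells of the other tuft and enteroendocrine subtypes. The types come from the authors' table of YFP+ cells, so cells outside that table have none. Thinned to 2500 UMIs, 51.6% of Delta cells held an EYFP UMI. Of the 126 untyped cells, 117 held no EYFP UMI, as did most of the 7778: 612 held one. The median depth of the 126 was 12672 and 14121 UMIs at 2 weeks, and 1492 and 2362 at 4 weeks. The median cell of the 126 held 40.5 Sst UMIs, against 1085 in Delta cells at 1% Sst or more. By mouse these medians were 665, 902, 29 and 40 Sst UMIs, against 1419, 860.5, 670 and 1048 in Delta cells, with cells of unlike depth. As a share of the cell's UMIs, the median Sst was 5.26%, 3.80%, 1.59% and 1.53% in the untyped cells. In those Delta cells it was 12.2%, 7.70%, 6.86% and 9.67%, higher in every mouse. With cells at least as deep as the shallowest Delta cell (2579 UMIs), a limit chosen after the data were seen, 55 remained, of which 41 held a Hhex UMI and 9 an EYFP UMI; 4.66% of Tuft-3 cells held a Hhex UMI. Some genes of other cells were high in the 41 pooled. The gastric gene Gkn3 was at 25449 CPM (629 CPM in Delta cells pooled), Tff2 at 10459 (664), Pga5 at 2514 (52.8) and the acinar enzyme gene Ctrb1 at 21086 (6183). The macrophage gene Lyz2 was lower, at 8.4 (84.2). Endocrine genes were present below the level of Delta cells: Isl1 at 665 (1565), Rbp4 at 3828 (7602), Pyy at 8477 (18066) and Pcsk2 at 522 (816).

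Acinar/MucinDuctal cells held 65 such cells of 1955 (0, 1, 19 and 45 per mouse), with a median of 2249 UMIs and 33 Sst UMIs; 24 of them held a Hhex UMI. With the same limit on depth 22 remained (0, 1, 0 and 21 per mouse), so all but 1 came from 4-week mouse 2. Neither set of cells was used for the levels of Delta cells or the test between the times.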

How the results depend on the processing

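Of 230 values of the 18 genes named for the time comparison under the alternatives, none changed direction. The groups of these genes do not overlap, so leaving out 1 mouse could hardly reverse a direction. A call was lost in 4 of the values and gained in 36, fits with 1 mouse left out among them. The number of genes called in Delta cells (1) was 2 with DESeq2, 24 with no filter on low counts, 2 without cells with a second hormone, 0 in the fit with the other subtypes (539 at an unadjusted p under 0.05), 3 without cells under 1% Sst (added after the data were seen) and 29 to 50 with 1 mouse left out. Pga5 was called in 9 of 13 alternatives. For the difference of time effects (0 called) edgeR called 4 with no filter and 0 to 4 with 1 mouse left out: 2 without 2-week mouse 2 and 4 without 4-week mouse 2. The 8 genes above every other subtype were 12 at a minimum of 50 CPM, 4 at a minimum of 200 CPM, 5 with a pseudocount of 50 CPM and 8 to 11 with 1 mouse left out. The difference in the share of enteroendocrine cells was -4.16 to -1.64 percentage points with 1 mouse left out. Its sign could not change there, because both 2-week shares exceed both 4-week shares. For the other denominators, whose differences of means were also negative, no mouse was left out. The 126 cells with 1% Sst or more and no type were 55 at the depth of Delta cells. The causes were not tested. No paired analysis was possible because the labels carry mouse names and no replicate numbers shared between the times. With 2 mice per time and 29 to 45 cells each, depth limits low genes.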
